A study of Mus musculus with 2 samples.

Results

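Fc gamma receptors let macrophages bind antibody-coated targets, and this account covers 6 genes of the mouse system with all 23 of their annotated transcripts, of 55536 genes and 141864 transcripts measured. The genes were taken by symbol. They are the activating receptors Fcgr1, Fcgr3 and Fcgr4, the signalling chain Fcer1g, the inhibitory receptor Fcgr2b and Fcgrt, the neonatal Fc receptor. RNA came from the nuclei of macrophages grown from C57BL/6J mouse bone marrow. All cells had received lipid A, the part of endotoxin that Toll-like receptor 4 senses, at 100 ng/ml for 12 h, then 12 h without it, then the same dose again for 50 min. The submitters describe the RNA as nucleoplasmic and the source as a nuclear fraction, and ribosomal RNA was depleted. There was 1 group of 2 libraries, numbered as biological replicates 2 and 1, made from 1 µg and 500 ng of RNA. They have separate sample entries but the same donor entry, and no separate cultures or animals are named, so the spread between them may be technical, and replicate and RNA input cannot be told apart. No unstimulated cells were analysed here, and the values describe lipid A-treated cells without measuring what the treatment did.

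The activating receptors bind IgG in immune complexes and pass the signal through Fcer1g, whose paired tyrosine motif (ITAM) recruits the kinase Syk. This leads to phagocytosis, an oxidative burst and cytokine release. Fcgr2b carries an inhibitory tyrosine motif (ITIM) in its own tail, which recruits the phosphatase SHIP1 (Inpp5d) when it is bound together with an activating receptor. The balance of activating to inhibitory receptors therefore sets the threshold at which macrophages respond to immune complexes. Fcgrt works apart from this pair: it binds IgG in acidic endosomes together with beta-2 microglobulin and protects it from breakdown.

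The genes were neighbours in part. On chromosome 1 (mm10, GENCODE M21) the annotation places Fcgr2b (ENSMUSG00000026656.15, minus strand) at 170958617 to 170976547, Fcgr4 (ENSMUSG00000059089.4, plus strand) at 171018920 to 171029761, Fcgr3 (ENSMUSG00000059498.13, minus strand) at 171051174 to 171064935 and Fcer1g (ENSMUSG00000058715.11, minus strand) at 171229572 to 171234365. Fcgr1 (ENSMUSG00000015947.10) lies on the minus strand of chromosome 3 at 96282909 to 96293969, and Fcgrt (ENSMUSG00000003420.8) on the minus strand of chromosome 7 at 45092990 to 45103851. Fcgr2b and Fcgr3 are close copies. Their coding sequences were identical at 85.1% of 777 aligned bases, against 60.5% to 66.2% for the other 5 pairs among Fcgr1, Fcgr3, Fcgr4 and Fcgr2b. The exon of the second immunoglobulin-like domain differed at 5 of 255 bases (98.0% identity) and is shown because reads from it can belong to either gene. It lies at chr1:170966446-170966700 in Fcgr2b and at chr1:171053939-171054193 in Fcgr3, and each is written 5′ to 3′ along the gene with the differing bases in capitals.
Fcgr2b: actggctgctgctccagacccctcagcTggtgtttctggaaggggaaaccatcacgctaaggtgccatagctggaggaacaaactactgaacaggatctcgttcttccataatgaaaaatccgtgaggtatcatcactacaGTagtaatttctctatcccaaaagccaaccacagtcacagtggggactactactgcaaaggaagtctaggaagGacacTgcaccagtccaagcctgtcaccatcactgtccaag
Fcgr3: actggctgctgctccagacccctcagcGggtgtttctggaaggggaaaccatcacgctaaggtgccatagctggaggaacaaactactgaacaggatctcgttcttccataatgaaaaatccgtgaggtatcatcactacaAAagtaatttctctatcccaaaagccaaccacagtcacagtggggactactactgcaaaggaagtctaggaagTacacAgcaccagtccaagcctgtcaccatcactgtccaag
The longest run without a difference was 113 bases. Over whole genes, 166 stretches of 50 bases were shared, which is 9.58% of those in Fcgr3 transcripts and 2.92% of those in Fcgr2b transcripts, and none was shared between any other members. In the authors' deposited table the posterior standard deviation of the count of either gene was at most 0.74 reads, so the division of reads between the 2 genes was narrow within the authors' model. The sources used here do not give the read length.

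The libraries held 22772081 counts in replicate 2 and 20612078 in replicate 1, and each member had at least 464 counts in each. The counts are estimates that divide reads shared by several transcripts, and TPM divides them by effective length and scales each library to the same total, so that levels of different genes can be set side by side. Levels of the 7 macrophage markers listed were all above the 90th percentile of protein-coding genes (28.7 TPM over the 12140 that had at least 10 counts when both libraries were added), and their sum was 2114 TPM in replicate 2 and 2178 TPM in replicate 1. Lyz2 was the highest of these markers, at a mean level of 1010 TPM. Other cells that carry Fc gamma receptors left little RNA. The 4 natural killer markers had 0 counts in the gene-level table, which allows up to 0.132 CPM (counts scaled to the library total) in replicate 2 and 0.146 CPM in replicate 1 by counting error alone. In the index-based transcript table, which the authors made from the reads and a transcript index in place of alignments, Eomes had 0.0578 TPM in replicate 2 and 0.340 in replicate 1, Ncr1 had 0.00506 and 0, and the other 2 had 0. In the gene-level table the 5 B cell markers summed to 0.26 and 0.3 TPM, the 5 mast cell and basophil markers to 0.75 and 0.6, the 5 neutrophil markers to 1.63 and 0.74 and the 4 dendritic cell markers to 0.47 and 0.56. The highest of them were Cd79b, Kit, S100a9 and Zbtb46 at mean levels of 0.245, 0.56, 0.61 and 0.245 TPM. Ly6g, a defining neutrophil marker, had 0 counts there.

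In gene-level TPM, which counts all transcripts of a gene, the signalling chain and the inhibitory receptor were the most abundant members. The 3 activating receptors were lower and unequal. All 6 members lay above the median protein-coding gene (3.59 TPM), and 3 of 6 lay above the 90th percentile. Fcer1g, the chain that all the activating receptors need, had 298 TPM in replicate 2, against 303 in replicate 1 (mean 301 ± 3.66, SD, n = 2), rank 75 of 12140 protein-coding genes. Fcgr2b stood at 250.8 and 232 TPM (242 ± 13.1), rank 107. In this gene-level table both differed little between the libraries.

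Among the activating receptors, Fcgr1 led. Fcgr1, the high-affinity receptor that binds single IgG molecules, had 117 TPM in replicate 2, against 47.6 in replicate 1 (82.6 ± 49.4), rank 390. Fcgr4, a receptor of intermediate affinity, stood at 31.4 and 13.5 TPM (22.5 ± 12.7), rank 1620. Both were higher in replicate 2 in this table, and their SDs were large beside their means. Fcgr3, a low-affinity receptor for immune complexes, stood at 14.3 and 14.04 TPM (14.2 ± 0.17), rank 2444. Fcgrt stood at 12.5 and 10.1 TPM (11.3 ± 1.66), rank 3009. The order was thus Fcer1g, Fcgr2b, Fcgr1, Fcgr4, Fcgr3 and Fcgrt in replicate 2, and in replicate 1 Fcgr3 and Fcgr4 changed places, so those neighbours did not differ beyond their spread. In bulk RNA, fewer cells with a transcript and less of it per cell cannot be told apart. With 2 libraries of 1 group, no likeness of pattern to other genes can be defined.

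The index-based transcript table gave other TPM differences between the libraries. There Fcgr2b had 74.2 TPM in replicate 2, against 137 in replicate 1, and Fcer1g had 89.98 against 179.8. Fcgr1 had 34.6 TPM in replicate 2, against 29.5 in replicate 1, and Fcgr4 had 8.02 against 7.53. In these values Fcgr1 and Fcgr4 were nearly level and the chain and the inhibitory receptor were lower in replicate 2. The whole table was shifted: the median log2 ratio of TPM, replicate 2 over replicate 1, was -1.10 over 8628 genes, against 0.0039 over 8640 genes in the gene-level table. Relative to that median, the log2 ratios in the index-based table were 1.33 for Fcgr1, 1.19 for Fcgr4, 0.21 for Fcgr2b, 0.18 for Fcgrt, 0.10 for Fcer1g and 0.01 for Fcgr3. Relative to the gene-level median they were 1.30 for Fcgr1, 1.22 for Fcgr4, 0.11 for Fcgr2b, 0.30 for Fcgrt, -0.03 for Fcer1g and 0.02 for Fcgr3.

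**Figure D1:**
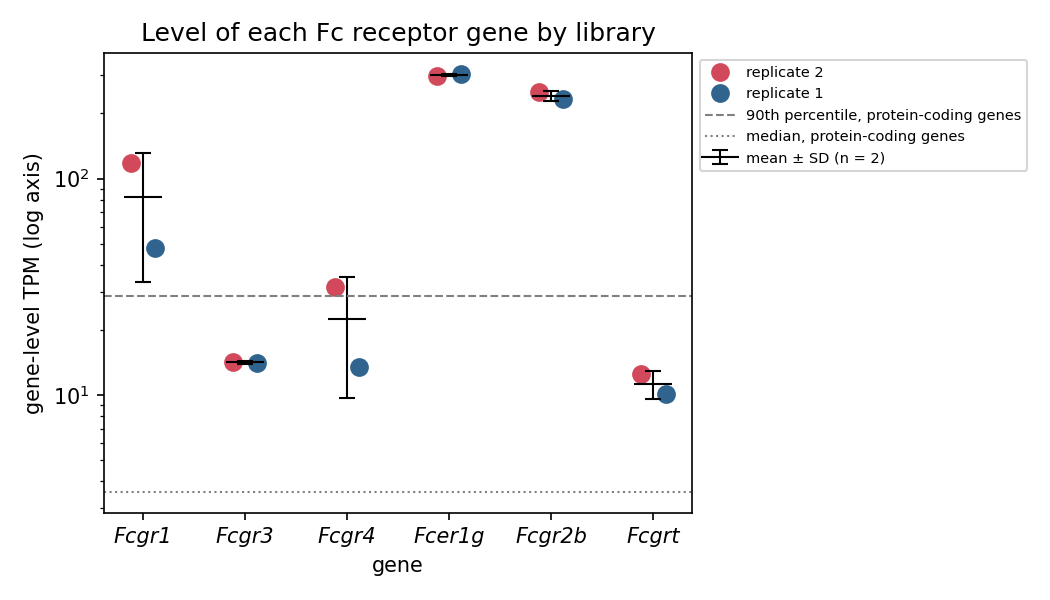
Gene-level TPM (log axis) of the 6 genes in replicate 2 (left point) and replicate 1 (right point), with the mean and SD over the 2 libraries as black bars and the median and 90th percentile of protein-coding genes as lines. Fcer1g and Fcgr2b sit at or above 232 TPM in both libraries, Fcgr1 and Fcgr4 are split between libraries, and Fcgr3 and Fcgrt lie between 10.1 and 14.3 TPM.

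Activating receptor RNA was lower than inhibitory receptor RNA when all transcripts of each gene were counted. The summed TPM of Fcgr1, Fcgr3 and Fcgr4 was 163 against 250.8 for Fcgr2b in replicate 2, a ratio of 0.651, and 75.1 against 232 in replicate 1, a ratio of 0.323 (mean 0.487 ± 0.231, SD, n = 2). Counted this way, each receptor alone was lower than Fcgr2b in both libraries. Fcgr1 stood at 0.468 and 0.205 of the Fcgr2b level in replicates 2 and 1, Fcgr4 at 0.125 and 0.058, and Fcgr3 at 0.0569 and 0.0604. Fcgr1 made up 72.0% and 63.4% of the activating sum, Fcgr4 19.3% and 17.9%, and Fcgr3 8.75% and 18.7%. The shared chain exceeded the sum of the receptors that use it, by 1.83-fold in replicate 2 and 4.04-fold in replicate 1. Other receptors of macrophages pair with Fcer1g as well. These ratios are descriptions. No test was run, since an exact two-sided sign-flip test over 2 libraries cannot give less than p = 0.5.

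This order depended on which transcripts were counted. With protein-coding transcripts only, Fcgr2b had 79.9 TPM in replicate 2, against 70.4 in replicate 1, while the activating sum was 136 and 68.9 TPM. The ratio was then 1.70 in replicate 2 and 0.980 in replicate 1 (1.34 ± 0.511), so activating RNA was the higher in replicate 2 and about level with Fcgr2b in replicate 1. The index-based transcript table gave 0.621 and 0.324 over all transcripts, and 1.49 and 0.953 over protein-coding ones. The ratio was higher in replicate 2 than in replicate 1 under each of these 4 countings. Over protein-coding transcripts, Fcgr1 alone stood at 1.14 of the Fcgr2b level in replicate 2 and 0.640 in replicate 1. In the index-based table these were 1.00 and 0.630. Fcgr3 and Fcgr4 alone stayed below Fcgr2b in both libraries and tables.

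**Figure D2:**
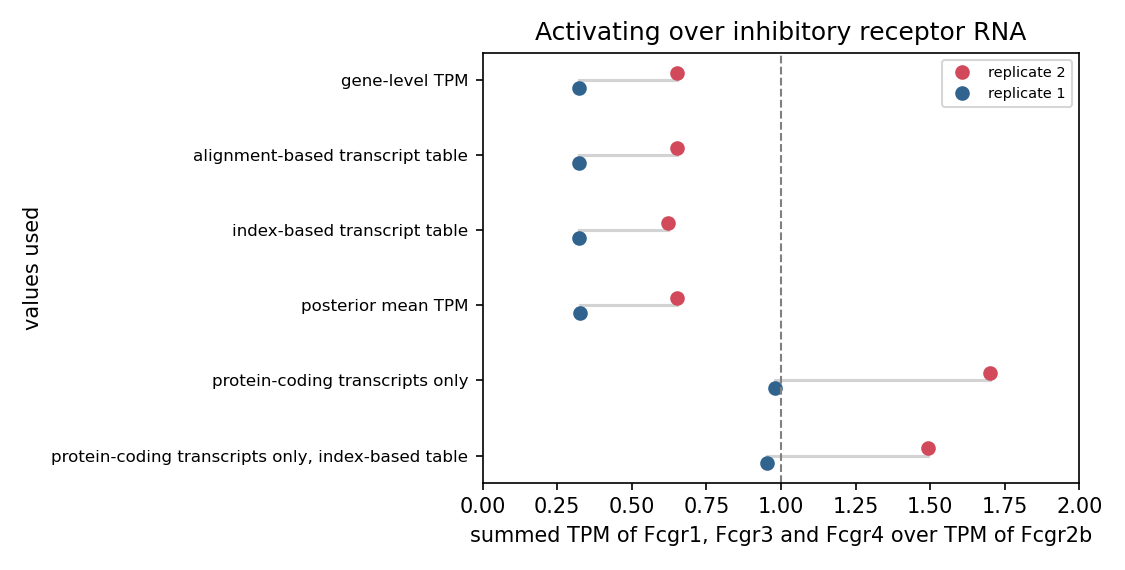
Ratio of the summed TPM of Fcgr1, Fcgr3 and Fcgr4 to the TPM of Fcgr2b (x axis, linear, the dashed line marks equal levels) under 6 ways of taking the values, in replicate 2 (upper points) and replicate 1 (lower points). Counting all transcripts gives 0.323 to 0.651 in the alignment-based values, and counting protein-coding transcripts only moves replicate 2 above 1 in both tables.

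In TPM, most Fcgr2b RNA was assigned to transcripts that are not annotated as protein-coding. They took 68.1% of the gene's TPM in replicate 2 and 69.7% in replicate 1 of the alignment-based table (68.9% ± 1.11, SD, n = 2), and 69.3% and 70.4% in the index-based table. The libraries and the tables gave nearly the same share of TPM, and the share of counts, given below, was smaller. Among 6662 protein-coding genes that reached 100 counts in each library and have at least 1 such transcript, the median share was 26.0% and the 90th percentile 63.1%. Fcgr2b exceeded 93.1% of them.

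The transcripts concerned each hold intron sequence. Fcgr2b-205, annotated as a retained intron, runs 1369 bases into the intron after the fifth exon (chr1:170964333-170965701) and took 28.5% of TPM in replicate 2 and 24.4% in replicate 1. Fcgr2b-206, a processed transcript of the 3′ end, starts with 397 bases of intron (chr1:170961234-170961630) and took 25.6% and 30.05%. Fcgr2b-207, a retained intron at the 5′ end, holds 214 bases of intron (chr1:170969260-170969473) and took 14.04% and 15.3%. Reads of Fcgr2b RNA that is not yet fully spliced would fall in the same bases, and the tables do not separate them. Retained-intron transcripts alone made up 42.6% and 39.7% of TPM, above 81.2% of the 5156 genes that have one. TPM divides by length, and Fcgr2b-207 has only 462 bases. In alignment-based counts the 3 transcripts, in the order above, had 5036, 1343 and 329 of 12074 in replicate 2. In replicate 1 they had 3814, 1353 and 288 of 10855. In index-based counts they had 5323, 1963 and 703 of 16573 in replicate 1, which is not most of them.

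**Figure D3:**
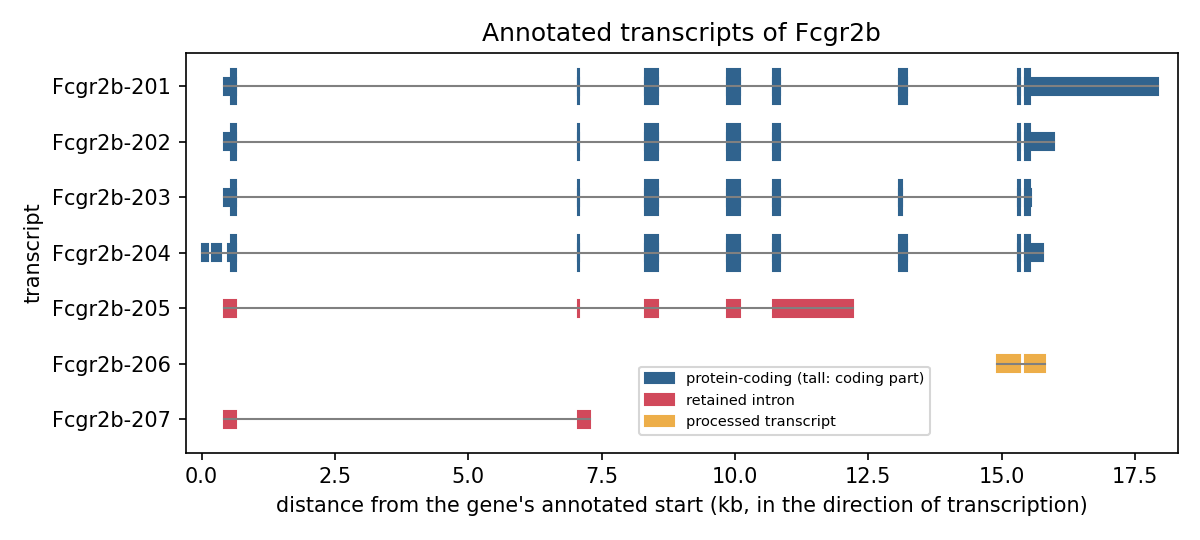
The 7 annotated transcripts of Fcgr2b drawn to scale as distance in kb from the annotated start of the gene, with exons as boxes and coding parts as taller boxes. The retained-intron transcripts Fcgr2b-205 and Fcgr2b-207 and the processed transcript Fcgr2b-206 extend exons into introns, and only Fcgr2b-201 has the long last exon.

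The remaining Fcgr2b RNA was nearly all in Fcgr2b-201 and Fcgr2b-202. These differ by an exon of 141 bases in the cytoplasmic tail, at chr1:170963325-170963465, which Fcgr2b-201 has and Fcgr2b-202 skips. In mouse, the form with the insert (b1) is typical of B cells and is held at the surface, and the form without it (b2) is typical of macrophages and is internalised with its ligand. The skipped exon is shown 5′ to 3′ along the gene because it tells the forms apart.
Fcgr2b exon: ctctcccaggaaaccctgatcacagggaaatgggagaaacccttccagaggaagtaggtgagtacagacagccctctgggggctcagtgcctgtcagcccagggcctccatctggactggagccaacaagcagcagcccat
Fcgr2b-202, the skipping form, had 53.1 TPM in replicate 2, against 34.2 in replicate 1. Fcgr2b-201, the form with the exon, stood at 26.6 and 36.2 TPM. In these alignment-based values the 2 forms moved in opposite directions between the libraries. Fcgr2b-201 made up 33.4% of their sum in replicate 2 and 51.4% in replicate 1, and 37.7% and 57.8% in the index-based table. In index-based TPM both forms were lower in replicate 2, Fcgr2b-201 at 8.47 against 23.3 and Fcgr2b-202 at 13.99 against 17.1. That table was shifted over all genes, and the log2 ratios of its scaled counts were -0.30 for Fcgr2b-201 and 0.87 for Fcgr2b-202. Fcgr2b-201 also has a last exon of 2484 bases, against 543 in Fcgr2b-202, so use of the skipped exon and of the far 3′ end cannot be told apart in these tables. Markers of B cells were near 0, as given above. The other protein-coding forms, Fcgr2b-203 and Fcgr2b-204, took at most 0.303% of TPM in either library and table.

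The other genes had less RNA outside protein-coding transcripts in both tables. Fcgr4 has 1 annotated transcript, so none of its intron reads can be counted. Fcgr1 has no annotated retained-intron transcript, and its decay form holds 0 bases outside the protein-coding exons. Ratios over all transcripts thus set Fcgr2b, with intron sequence annotated, beside Fcgr1 and Fcgr4 without it. Fcer1g was mostly in Fcer1g-201, at 91.8% in replicate 2 and 95.9% in replicate 1. A second coding form, Fcer1g-203, held 4.07% and 2.58%, or 16.1% and 10.4% in the index-based table, and the retained-intron form Fcer1g-202 stayed under 10% in both tables. Fcgr3 was mostly in its longest coding form, at 82.5% and 70.9%. Its retained-intron form (ENSMUST00000168817.1) held 7.56% in replicate 2 and 26.0% in replicate 1, with 40.9 and 130.6 counts. The posterior standard deviations of these counts were 35.5 and 52.1 reads, so the split within Fcgr3 was poorly determined. The 2 remaining Fcgr3 forms took under 10%.

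Fcgrt showed the widest gap between tables. In the alignment-based table Fcgrt-201 held 68.1% in replicate 2 and 57.2% in replicate 1 and Fcgrt-203 28.7% and 42.8%. Their coding lengths are 1095 and 1107 bases. The retained-intron form Fcgrt-206 held 0% there in both libraries but 37.04% and 45.9% in the index-based table. The authors' posterior mean TPM of Fcgrt was 27.3 in replicate 2 and 10.1 in replicate 1, while the TPM used here was 12.5 and 10.1.

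**Figure D4:**
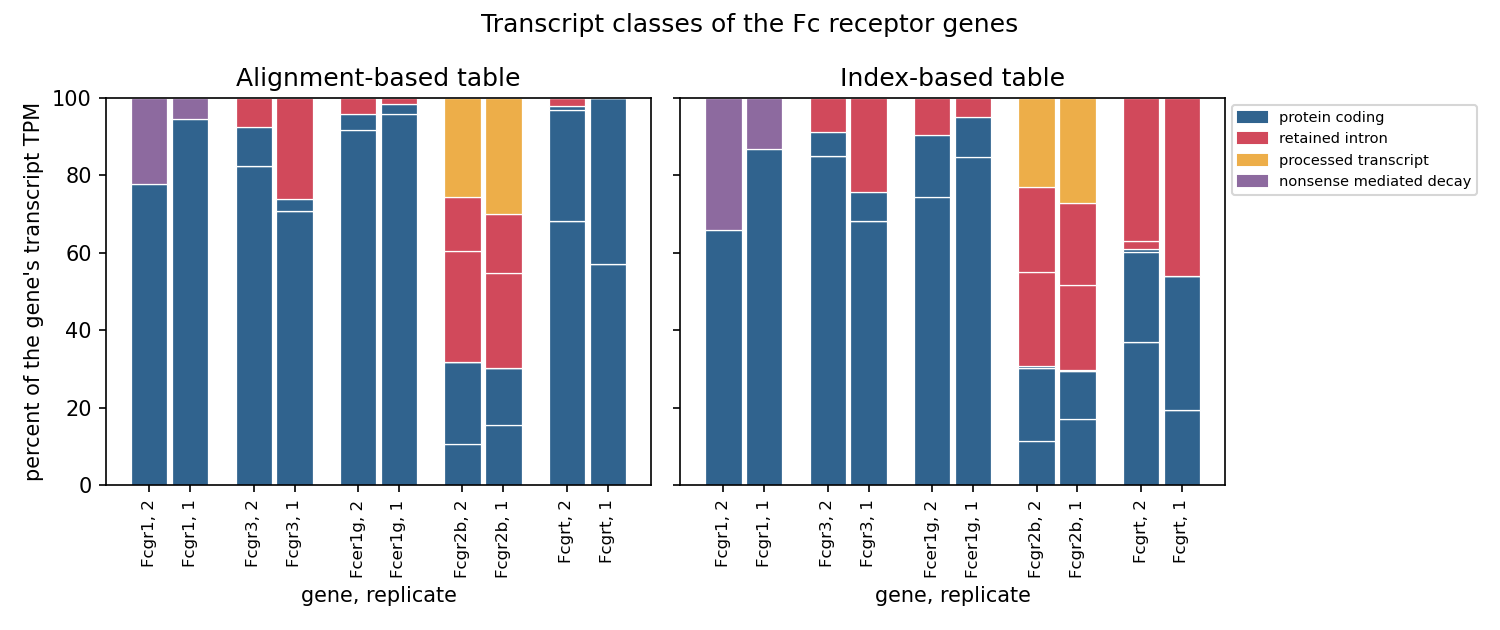
Percent of each gene's transcript TPM by annotated class in the alignment-based table (left) and the index-based table (right), with replicate 2 left of replicate 1 for each gene and white lines between transcripts. Fcgr2b is the gene with over 68% outside protein-coding transcripts in every bar, Fcgrt differs between tables, and Fcgr4 is left out because it has 1 transcript.

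Fcgr1 and Fcgr4 differed between the libraries, and the other 4 genes lay close together. Counts were scaled by TMM, a trimmed mean of ratios over all genes, and a gene was called when the libraries differed by 2-fold or more and both had 100 or more counts, which all 6 genes had. Of the 6, 2 were called, both higher in replicate 2. Over all 8641 genes with such counts, 1.97% were called, 1.53% as higher and 0.44% as lower in replicate 2. This sets 1 library against 1, so it has no replicate check and no p-value, and the intervals given are exact binomial 95% intervals that cover counting error only.

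Fcgr4 had 1146 counts in replicate 2 and 464 in replicate 1, a ratio of 2.35 (interval 2.11 to 2.62). Fcgr1 had 7859 and 3576 counts, a ratio of 2.09 (2.01 to 2.18), and with library totals in place of TMM its log2 ratio was 0.99, short of 2-fold, while 1.84% of all genes were called. In the index-based table the log2 ratios of Fcgr4 and Fcgr1 were 1.25 and 1.08.

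The chain, the inhibitory receptor and the low-affinity receptor stayed near equal counts. Fcer1g had 4817 counts in replicate 2 and 4549 in replicate 1, a ratio of 1.007 (0.967 to 1.05). Fcgr2b had 12074 and 10855, a ratio of 1.06 (1.03 to 1.09), and Fcgr3 had 562 and 520, a ratio of 1.03 (0.911 to 1.16). With library totals the log2 ratios of Fcer1g and Fcgr3 were -0.06 and -0.03, so neither has a direction. That of Fcgr2b was 0.01, so its difference from equal counts depended on the scaling. Fcgrt had 638 and 497 counts, a ratio of 1.22 (1.08 to 1.38). The difference in the activating to inhibitory ratio between the libraries, 2.01-fold, came in the gene-level table with a higher Fcgr1 and Fcgr4 in replicate 2 beside a similar Fcgr2b. In the index-based TPM, a difference of 1.92-fold came with an activating sum of 46.1 TPM in replicate 2 and 44.4 in replicate 1, beside an Fcgr2b of 74.2 and 137 TPM, in a table whose TPM was lower in replicate 2 over all genes.

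**Figure D5:**
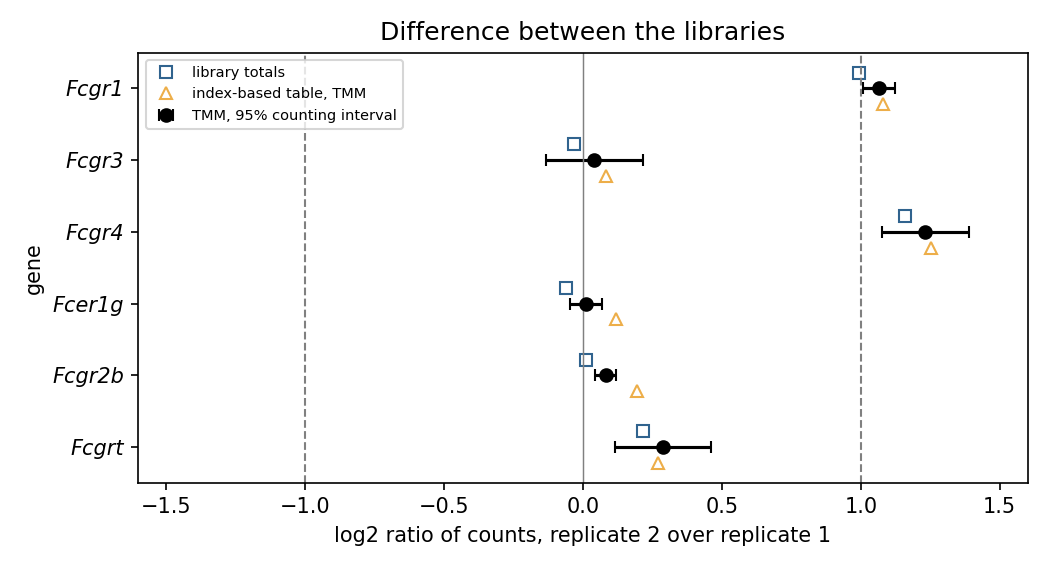
Log2 ratio of counts in replicate 2 over replicate 1 for each gene (filled points with exact 95% counting intervals), with library totals (squares) and the index-based table (triangles) as alternatives and dashed lines at 2-fold. Fcgr1 and Fcgr4 lie near or beyond 2-fold higher in replicate 2, and the other 4 genes lie within 0.29 of 0 on the log2 scale.

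Most of the Fcgr1 count difference lay in its protein-coding form, and a smaller part in a transcript marked for decay. The Fcgr1 transcript annotated as a target of nonsense-mediated decay (ENSMUST00000200420.1) had 366 counts in replicate 2 and 32.6 in replicate 1, or 22.2% and 5.40% of the gene's TPM, and 34.2% and 13.3% in the index-based table. The protein-coding form (ENSMUST00000029748.7) had 7493 and 3543 counts, a ratio of 2.01. Its level was 91.4 and 45.06 TPM. The protein-coding form has 2589 bases, against 600 in the decay target, so TPM shares weigh the decay target more than counts do. The posterior standard deviation of the count of the decay target was 41.8 reads in replicate 2 and 13.9 in replicate 1.

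The promoters of Fcgr1 and Fcgr4, both called higher in replicate 2, are shown with the matches to 3 motifs in capitals. They come from RefSeq (GRCm38.p6, the build of mm10), which held a promoter for all 6 genes, from 250 bases before to 50 after the start. The motifs, searched on both strands, were TTCNNNGAA, the site type of STAT factors, a pair of GAAA blocks with 2 bases between them, that of interferon regulatory factors, and GAGGAA, the core of sites for PU.1, a myeloid lineage factor. None of the matches printed overlap.
Fcgr1, chr3:96293920-96294219, minus strand: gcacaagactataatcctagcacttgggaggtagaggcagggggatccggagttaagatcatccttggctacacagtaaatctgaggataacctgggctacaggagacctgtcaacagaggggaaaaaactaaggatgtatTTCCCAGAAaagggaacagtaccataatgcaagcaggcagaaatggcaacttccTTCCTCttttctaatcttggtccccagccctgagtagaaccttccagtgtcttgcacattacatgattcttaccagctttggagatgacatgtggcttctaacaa
Fcgr4, chr1:171018676-171018975, plus strand: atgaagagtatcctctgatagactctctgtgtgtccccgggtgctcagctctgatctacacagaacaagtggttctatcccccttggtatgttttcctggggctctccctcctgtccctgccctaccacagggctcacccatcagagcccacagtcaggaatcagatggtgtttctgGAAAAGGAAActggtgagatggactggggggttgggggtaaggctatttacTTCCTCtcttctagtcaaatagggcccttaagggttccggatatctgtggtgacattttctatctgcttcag
Fcgr1 held 1 match to TTCNNNGAA, starting 109 bases before the start site, a motif found in 8.30% of 32851 promoters. Fcgr4 held 1 match to the paired GAAA blocks, starting 73 bases before it, a motif found in 3.44%. Both held a match to GAGGAA, starting 55 and 22 bases before the start site in Fcgr1 and Fcgr4, and so did Fcgr3, against 28.3% of all promoters. No motif was found in the windows of Fcer1g, Fcgr2b or Fcgrt. A match in these letters is a description and not a site shown to be bound.

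Genes of the kinases and phosphatases below the receptors were measured in both libraries. Of 16 genes of the activating pathway, 15 had 100 or more counts in both libraries, all but the kinase Fgr, and 0 were called in either direction by scaled counts, where 1.97% of all genes were. Their median level was 37.9 TPM. Syk, the kinase recruited by Fcer1g, had 199 TPM in replicate 2, against 174.5 in replicate 1, Prkcd, a protein kinase C, at 134 and 90.3, and Lat2, an adaptor, at 89.8 and 70.9. Of 10 inhibitory pathway genes, all had such counts and 0 were called, with a median of 17.6 TPM. With lists this short and that share over all genes, a count of 0 says nothing particular to them. Cbl, a ubiquitin ligase that acts on Syk, stood at 38.55 and 42.04 TPM, Inpp5d (SHIP1) at 34.0 and 43.3 and Ptpn6 (the phosphatase SHP-1) at 51.1 and 24.4. Ptpn6 differed by 1.71-fold in scaled counts, so it was not called although its TPM differed by more. The median log2 ratios were 0.12 and 0.39 for the activating and inhibitory lists, against -0.04 over all 8641 genes.

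Other antibody receptors were mostly near 0, and the partner chains B2m and Tyrobp were high. Of 16 genes in this list, 4 had 100 or more counts in both libraries and 3 had 0 counts, with a median level of 0.113 TPM. B2m, the partner of Fcgrt, had 534 TPM in replicate 2, against 419 in replicate 1, Tyrobp, another ITAM chain, at 103 and 72.2, and Trim21, a cytosolic antibody receptor, at 34.3 and 25.8. B2m was thus far above Fcgrt itself. Cd247, a further partner chain in the list, had 0.19 TPM in replicate 2 and 0.37 in replicate 1. The mast cell receptor genes Fcer1a and Ms4a2 had 0 and 1 counts in replicate 2 and 2 and 5 in replicate 1. Of the 4, the 1 gene called was Fcrls, an Fc receptor-like scavenger receptor. It had 311 counts in replicate 2 and 129 in replicate 1, a log2 ratio of 1.19. Over all 8641 genes 1.97% were called, and 1 library against 1 has no replicate check, so this count says nothing particular to the list.

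Some annotated genes overlap members. The antisense gene Gm38204 overlaps the start of Fcgr2b and had 17 counts in replicate 2 and 5 in replicate 1 in the gene-level table, but 277 and 378 in the index-based table. Gm45669, antisense to Fcgrt, had 0 counts in both tables. Fcgr2b itself had 12074 and 10855 counts in the gene-level table and 15306 and 16573 in the index-based table. Use of strand in the counting is not stated, so how well reads of Fcgr2b and its antisense partner were separated cannot be judged.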

How the data were processed

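Per the file headers and the notes deposited with them, the authors made 3 tables per library on mm10 with GENCODE M21: gene-level and alignment-based transcript tables from transcriptome alignments, and an index-based transcript table from reads and a transcript index. The aligner and quantifier are not named in the labels or notes (not given in the sources used here). In the deposited tables, expected counts are estimates that need not be whole, and the deposited TPM is scaled by effective length to a fixed total over all entries of a table. Rows that name no annotated gene (26345, holding 0.081% of counts in replicate 2 and 0.144% in replicate 1) were left out.

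Expected counts were rounded to whole numbers and scaled with the TMM method of edgeR 4.0.16 in R 4.3.3, and 0.5 was added to each count in ratios of replicate 2 over replicate 1. The contrast of 1 library with the other has no residual degrees of freedom, and no test was run. Exact binomial intervals used scipy 1.17.1. The scaling was run on simulated data for the same contrast over 55536 genes: 100 genes set 4-fold higher and 100 set 4-fold lower in replicate 2 gave median log2 ratios of 1.99 and -1.99. The simulation held counting error only and equal numbers of genes changed each way. It therefore cannot decide between scalings where changes go mostly in a single direction. DESeq2 1.42.0 gave size factors for an alternative. Other alternatives changed the table, the transcripts counted, the genes to which TPM was scaled, the count minimum, the fold and the replicates. The members and gene lists were chosen with earlier results of these data known. All 6 members were named, with each transcript holding 10% or more of its gene's TPM in any library and table, the 3 highest genes of each pathway list, any called gene of a list, and the highest gene of each marker list. The Fcgr4 promoter and other genes named were chosen after their values were seen, and protein sequences were not used here.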

Additional observations from a re-analysis of the deposited data

How the results depend on the processing

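The activating to inhibitory ratio, 0.487 as a mean of the libraries, changed side with protein-coding transcripts only, at 1.34 in the alignment-based table and 1.22 in the index-based table, the index-based one an alternative chosen after the data were seen. Its construction leaves out the intron-holding transcripts of Fcgr2b. Over all transcripts, the ratio with Fcgr3 or Fcgr4 alone over Fcgr2b was 0.0587 and 0.0917, and leaving out either replicate gave 0.323 to 0.651. The other tables and Fcgr1 alone, also over all transcripts, moved it by less than the SD.

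The count of genes past 2-fold between the libraries, 2, was 1 with library totals, where Fcgr1 fell short and 1.84% of all genes were called. It was 2 under the other 6 settings tried, under which 1.98% to 27.8% of all genes were called. Of these, 1 used 1.5-fold in place of 2-fold, with 10.9% of all genes called. Leaving out a library gives no ratio. No paired analysis was possible because there is 1 group. Of 42 alternative values of the members' TPM, 18 moved by more than the SD between libraries. All 6 genes had a lower mean in the index-based table. With TPM rescaled to protein-coding genes, all 6 had a higher mean, such as 1123 TPM for Fcgr2b, because TPM outside those genes was left out. Of 18 values of the leading transcript's share, 2 moved. The cause of the differences between tables was not tested. Depth limits Fcgr3, Fcgr4 and Fcgrt most, at 464 to 1146 counts.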
